A study of Mus musculus with 24 samples.

Results

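The miR-30 family is a group of microRNAs whose guide strands, the strands usually loaded into Argonaute, share a seed, the stretch near the 5′ end that pairs with target messenger RNAs. The members described here were the 5 assays named mmu-miR-30a, mmu-miR-30b, mmu-miR-30c, mmu-miR-30d and mmu-miR-30e, chosen by name alone, with names ending in a star left out. They were 5 of 584 microRNA assays. TaqMan low density cards, which run one PCR assay per well, gave microRNA levels in 4 groups of mouse cells with 3 replicates of each. L-1210 is a line derived from a lymphocytic leukaemia and M1 a line derived from a myeloid leukaemia, both grown in suspension. PYS is an adherent teratocarcinoma line of epithelial-like form, and the 3 lines were collected at passage 3. CT-BM is bone marrow, labelled as primary cells and flushed from femur and tibia in the design text, although its growth protocol describes a suspension culture, so the state in which it was collected is not settled. No strain, age, genotype or treatment was used to define the groups. Each line is a single established line, and nothing in the labels says that the 3 replicates came from separate cultures or animals, so p-values measure the spread between these replicates, which may be technical.

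A microRNA hairpin gives a strand from each arm, and for most hairpins the guide accumulates while its partner, the passenger or star strand, is degraded. Members of the miR-30 family are known to repress Snai1, a transcription factor of epithelial-mesenchymal transition, Becn1, an autophagy protein, and Prdm1 (Blimp-1), a transcription factor that drives lymphocytes to plasma cells, mostly from work in human and mouse cells. The family is also known for its high level in differentiated epithelial tissues and for repressing regulators of bone and fat cell differentiation.

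The mature sequences show what the members share and where the assays could tell them apart. RefSeq annotation of mouse build GRCm38.p6 held mature guide sequences for 3 of 5 members, and these are given with that of miR-384-5p, an assay outside the family name, with the seed (bases 2 to 8) in capitals.
miR-30a-5p: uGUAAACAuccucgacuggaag
miR-30c-5p: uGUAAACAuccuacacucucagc
miR-30e-5p: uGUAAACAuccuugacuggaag
miR-384-5p: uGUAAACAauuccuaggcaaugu
All 4 carry the same seed. Counting positions from 1 at the 5′ end, miR-30a and miR-30e differed at 1 of 22 positions, C13U from miR-30a to miR-30e, and their last 6 bases were the same. miR-30c differed from miR-30a at 5 of the 22 positions compared. miR-384-5p differed from miR-30a at 10 of 22, the first of them at position 9. A TaqMan stem-loop primer pairs with the 3′ end of its microRNA, and how far the miR-30a and miR-30e assays each read the other strand was not tested.

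The genes lie in pairs. Mir30a (chr1:23272269-23272339, plus strand) and Mir30c-2 (chr1:23291701-23291784, plus strand) are 19.4 kb apart. Mir30e (chr4:120772606-120772697, minus strand) and Mir30c-1 (chr4:120769534-120769622, minus strand) are 2.98 kb apart, and both lie within the span of Nfyc (chr4:120757435-120831579), which codes for a subunit of the CCAAT-binding factor NF-Y. Mir30b (chr15:68337415-68337510) and Mir30d (chr15:68341208-68341289) are 3.7 kb apart. The 2 miR-30c genes encode the same mature guide, so the miR-30c assay cannot tell one gene's product from the other's. The hairpins of Mir30a and Mir30e, whose guides differ by a single base and whose guide and passenger strands were all detected in every replicate, are printed with the guide (first capitals) and the passenger (second capitals) marked.
Mir30a: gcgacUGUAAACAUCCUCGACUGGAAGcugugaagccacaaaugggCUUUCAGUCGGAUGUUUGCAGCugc
Mir30e: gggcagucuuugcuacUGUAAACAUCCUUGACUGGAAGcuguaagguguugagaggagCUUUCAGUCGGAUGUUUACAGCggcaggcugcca
The passenger strands of these 2 hairpins differed from each other at 1 of 22 positions, G18A from miR-30a* to miR-30e*.

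The reading of a well is its threshold cycle (Ct), and 1 cycle less stands for a doubling of template. Levels are given as negative delta Ct, the mean Ct of the control RNAs MammU6, snoRNA135 and snoRNA202 minus the Ct of the assay on the same card, so that a higher value is more RNA and 1 unit is 2-fold. All 5 members were on card A in single wells, and all were detected in 12 of 12 replicates. Their Ct ran from 14.9 to 23.0, far from the detection limit of 35. Over the 187 microRNA assays detected in every replicate, the median SD between replicates was 0.35 in L-1210, 0.26 in M1, 0.26 in PYS and 0.22 in CT-BM, and between 44.3% and 54.2% of all microRNA assays were detected per replicate. Cell type markers were read as a check of the labels. In PYS all 7 of 7 embryonic stem cell and teratocarcinoma assays were detected, while each other group had 2 of the 7 detected in every replicate. Of 3 blood assays, 2 were detected in PYS, and miR-142-5p was not. All 3 blood assays were detected in L-1210, M1 and CT-BM. Their summed levels (2 to the power of the negative delta Ct, in units of the control RNAs) were 0.0297 to 0.133 in L-1210, 0.227 to 0.264 in M1, 5.91e-06 to 1.45e-05 in PYS and 2.53 to 2.85 in CT-BM. Of 4 stromal assays, 4 were detected in every replicate of CT-BM, 2 of M1, 2 of PYS and 1 of L-1210. Of these 4 assays, miR-143 and miR-214 were detected in CT-BM alone. Their summed level over the 4 was 0.0128 to 0.0192 in CT-BM and 0.00049 to 0.000659 in L-1210. It was 0.000335 to 0.000719 in M1 and 8.7e-05 to 0.000134 in PYS. Not every list followed the labels. The 2 lymphoid assays summed to 0.00591 to 0.0161 in L-1210 and 0.015 to 0.0316 in M1, with overlap. The 5 epithelial assays summed to 0.00248 to 0.00309 in PYS, where miR-141 was not detected. They summed to 0.00346 to 0.00386 in L-1210, 0.00258 to 0.0038 in M1 and 0.00657 to 0.00918 in CT-BM. The erythroid and endothelial lists were highest in CT-BM.

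All 5 members were well detected in every group. Among assays of unequal and unknown efficiency the Ct of different members do not rank their abundance, but their order can be compared between groups. miR-30c gave the earliest Ct and miR-30b the next in every replicate, 0.31 to 0.76 cycles later, and miR-30d the latest, 0.66 to 1.40 cycles after miR-30a. Among these orders, that of miR-30e and miR-30a was the one that changed. miR-30e came 0.41 to 0.78 cycles after miR-30a in PYS and 0.75 to 1.02 cycles before it in CT-BM, while in L-1210 (0.89 cycles before to 0.14 after) and M1 (0.48 before to 0.28 after) the replicates were divided.

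miR-30a, known in human cells to repress the autophagy protein Beclin 1, had negative delta Ct of -7.99, -7.05 and -7.44 in L-1210, -6.16, -6.68 and -5.94 in M1, -6.70, -6.31 and -6.63 in PYS, and -6.44, -6.30 and -6.66 in CT-BM. The L-1210 replicates were the lowest and overlapped no other group, while M1, PYS and CT-BM overlapped. miR-30b, which with miR-30d is known to repress the glycosyltransferase GALNT7 in human melanoma, had -4.86, -4.04 and -4.59 in L-1210, -3.45, -3.70 and -3.22 in M1, -3.98, -3.59 and -3.70 in PYS, and -3.47, -3.47 and -3.91 in CT-BM. Its pattern was that of miR-30a, with L-1210 below the other groups. miR-30c, known to repress connective tissue growth factor in rat heart cells, had -4.11, -3.63 and -3.83 in L-1210, -2.83, -3.14 and -2.68 in M1, -3.46, -3.28 and -3.38 in PYS, and -2.76, -2.88 and -3.26 in CT-BM. Here PYS lay between L-1210 and the other groups without overlap. miR-30d had -9.18, -7.91 and -8.31 in L-1210, -7.00, -7.72 and -7.07 in M1, -8.06, -7.60 and -8.03 in PYS, and -7.10, -7.20 and -7.60 in CT-BM. L-1210 replicate 1 was the lowest value of the assay. L-1210 overlapped PYS but neither M1 nor CT-BM. miR-30e, whose gene lies within Nfyc, had -7.10, -7.18 and -7.30 in L-1210, -6.43, -6.20 and -5.94 in M1, -7.46, -7.09 and -7.04 in PYS, and -5.44, -5.55 and -5.64 in CT-BM. All 9 replicates of the lines lay below CT-BM for this member, and L-1210 and PYS overlapped each other.

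**Figure D1:**
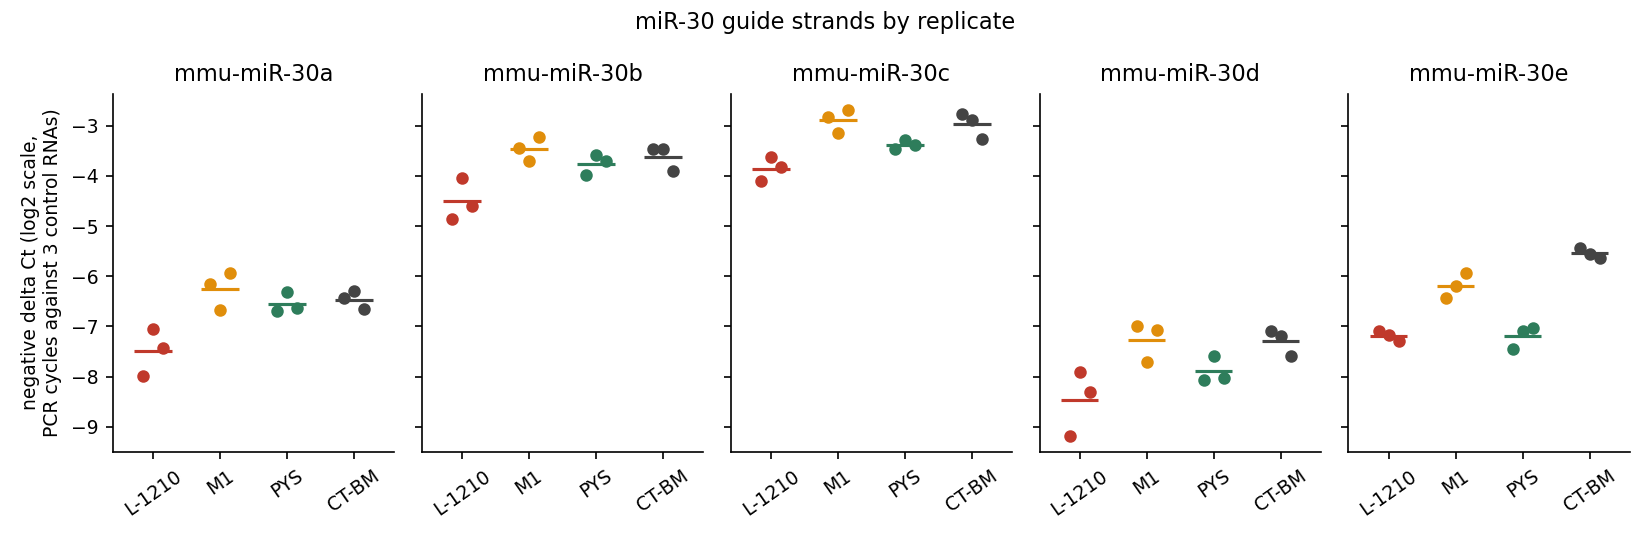
Negative delta Ct (log2 scale, PCR cycles against the mean of 3 control RNAs) of each miR-30 guide strand in L-1210, M1, PYS and CT-BM; points are replicates and bars the mean of 3. The mean of miR-30e is -7.19 in L-1210, -6.19 for M1, -7.20 for PYS and, highest of the 4, -5.54 for CT-BM, while miR-30a to miR-30d are lowest in L-1210. These orders are those of the 3-control scale and change under other scalings. L-1210 lies above CT-BM for miR-30b and miR-30c with MammU6 alone, the assays common to all replicates, quantiles or unscaled Ct. Unscaled, miR-30e in M1 lies 1.71 above CT-BM.

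Against the rest of the cards the family was even on the scale of the 3 controls. On that scale the range over the 4 group means was 0.97 for miR-30c, 1.04 for miR-30b, 1.20 for miR-30d, 1.23 for miR-30a and 1.65 for miR-30e (log2), against a median of 2.53 over the 187 assays detected throughout. Under unscaled Ct, scaling to the assays common to all replicates, or MammU6 alone, miR-30e was not the member with the widest range. Of these assays, 5.88% had a smaller range than miR-30c and 23.5% a smaller range than miR-30e. The F test of limma across the 4 groups gave adjusted p of 0.00399 for miR-30a, 0.00778 for miR-30b, 0.00341 for miR-30c, 0.00925 for miR-30d and 8.44e-06 for miR-30e. It passed at 0.05 for 97.9% of the 378 assays tested, so passing it does not set the members apart.

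L-1210 against bone marrow asks which microRNAs differ in a lymphocytic leukaemia line. A change was called at an adjusted p under 0.05 (limma, Benjamini-Hochberg over all assays tested in that comparison) and at least 2-fold. In L-1210, 3 of 5 members were called lower than in CT-BM and none higher, where 45.6% of the 333 assays tested were lower and 22.5% higher, on the scale of the 3 controls (with MammU6 alone all 5 turned positive). miR-30e fell by 1.65 on the log2 scale (SE 0.20, 3.14-fold, adjusted p = 8.11e-06), averaging -7.19 ± 0.10 in L-1210 and -5.54 ± 0.10 in CT-BM (SD, n = 3 each). miR-30d fell by 1.17 (SE 0.33, 2.25-fold, limma adjusted p = 0.00552) and miR-30a by 1.03 (SE 0.28, 2.04-fold, limma adjusted p = 0.00458). miR-30b (-0.88, limma adjusted p = 0.00658) and miR-30c (-0.89, limma adjusted p = 0.00235) passed the p threshold without reaching 2-fold. The median change of the members was -1.03, beside -0.82 over all assays tested. Without L-1210 replicate 1 only miR-30e was called, without CT-BM replicate 2 miR-30a lost its call, and without L-1210 replicate 2 or CT-BM replicate 3 all 5 were called. In bulk RNA, fewer cells of a type and less RNA per cell cannot be told apart, and CT-BM is a mixture of cell types.

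M1 against bone marrow showed 0 of 5 members called, where 25.2% of 325 assays tested were higher and 44.3% lower. miR-30e alone passed the p threshold, at -0.65 (SE 0.20, 1.57-fold, limma adjusted p = 0.0106), with means of -6.19 ± 0.25 in M1 and -5.54 ± 0.10 in CT-BM (SD, n = 3 each). The other members differed by 0.03 to 0.21, with 95% intervals from -0.40 to 0.81 for miR-30a and from -0.68 to 0.74 for miR-30d. A change of 2-fold lay outside these intervals on the scale of the 3 controls. At an unadjusted p under 0.05 on that scale, miR-30e was the only one of the 5. Under unscaled Ct all 5 were called higher, miR-30a at 2.56, and with quantiles miR-30a was called higher at 1.01. Unscaled, the median over all assays tested was 1.56. On card A the controls also came earlier in M1, MammU6 by 2.17, snoRNA135 by 2.23 and snoRNA202 by 2.67 cycles.

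PYS against bone marrow showed 1 of 5 members lower, miR-30e, where 38.7% of 362 assays tested were lower and 39.8% higher. miR-30e averaged -7.20 ± 0.23 in PYS and -5.54 ± 0.10 in CT-BM (SD, n = 3 each) and fell by 1.65 (SE 0.21, 3.14-fold, limma adjusted p = 6.14e-06), the same size as in L-1210. miR-30a, at -0.08 (95% interval -0.69 to 0.52), and miR-30b, at -0.14 (-0.70 to 0.41), had intervals that leave out a 2-fold change on this scale, but with MammU6 alone they were called higher, at 1.43 for miR-30a and 1.37 for miR-30b, along with miR-30c at 1.10. The call of miR-30e was lost under unscaled Ct (-0.71), scaling to the assays common to all replicates (-0.75) and MammU6 alone (-0.14). On the scale of the 3 controls the PYS replicates lay below those of CT-BM without overlap for miR-30c (-0.40, 95% interval -0.88 to 0.07) and, with nearest replicates both at -7.60 after rounding, for miR-30d (-0.60, -1.31 to 0.11), and neither passed (limma adjusted p = 0.103 for both).

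Between the leukaemia lines, 4 of 5 members were lower in L-1210 than in M1, where 30.7% of 306 assays tested were lower and 25.2% higher, again with the 3 controls (all 5 were positive with MammU6 alone). miR-30a fell by 1.23 (SE 0.27, limma adjusted p = 0.00165), miR-30d by 1.20 (SE 0.32, limma adjusted p = 0.00586), and miR-30b by 1.04 (SE 0.25, limma adjusted p = 0.00281). miR-30e changed by -1.004, at the 2-fold limit (SE 0.20, limma adjusted p = 0.000729). miR-30c, at -0.97, missed the 2-fold minimum with a limma adjusted p of 0.00153. The members' median was -1.04 beside -0.16 over all assays tested. No replicate of L-1210 overlapped one of M1 for any member. The count was 1 without L-1210 replicate 1, 2 without L-1210 replicate 3 or M1 replicate 3, and 5 without L-1210 replicate 2 or M1 replicate 2. The 4 MammU6 wells of M1 replicate 2 on card A were spread over 3.23 cycles, against 0.414 to 1.04 in the other card A runs, and their part in these differences was not tested beyond leaving that replicate out.

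PYS against L-1210 gave 0 of 5 members called, where 45.9% of 351 assays tested were higher and 27.6% lower. miR-30a (0.95, limma adjusted p = 0.00695) and miR-30b (0.74, limma adjusted p = 0.0175) passed the p threshold below 2-fold, and without PYS replicate 1 or L-1210 replicate 2 miR-30a was called. miR-30e was level in both lines, at -7.20 ± 0.23 in PYS and -7.19 ± 0.10 in L-1210 (SD, n = 3 each), with a 95% interval of the difference from -0.45 to 0.45. PYS against M1 gave 1 of 5 members lower, miR-30e at -1.01 (SE 0.21, 2.01-fold, limma adjusted p = 0.000563), where 27.3% of 341 assays tested were lower and 46% higher. That call lay at the 2-fold limit, turned to 0.32 with MammU6 alone, and was lost without PYS replicate 1 (-0.87) or M1 replicate 3 (-0.88).

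Ordering the groups by level, M1, CT-BM, PYS and L-1210 followed in this order for miR-30a, miR-30b, miR-30c and miR-30d. Of the neighbours in that order, neither M1 and CT-BM nor PYS and CT-BM passed an adjusted p of 0.05 for any of these 4 members. PYS and L-1210 passed it for miR-30a and miR-30b and not for miR-30c (limma adjusted p = 0.0582) or miR-30d (limma adjusted p = 0.121). For miR-30e the order was CT-BM, M1, L-1210 and PYS, where M1 was lower than CT-BM and L-1210 lower than M1 at that threshold, and PYS and L-1210 did not pass it (limma adjusted p = 0.994).

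These directions rest on the control RNAs, which themselves moved between groups. On card A, snoRNA202 came 2.64 cycles earlier in L-1210 than in CT-BM, and its Ct was earlier by 2.67 in M1 and by 1.53 in PYS. The MammU6 Ct of L-1210 exceeded that of CT-BM by 0.74 cycles and that of PYS did so by 0.57, while in M1 it came 2.17 cycles earlier than in CT-BM. With MammU6 alone as control, all 5 members turned positive in L-1210 against CT-BM, from 0.09 for miR-30e to 0.86 for miR-30b, and none was called. With snoRNA202 alone all 5 were called lower, down to -3.29 for miR-30e. In PYS against CT-BM, MammU6 alone gave 3 members called higher, and snoRNA135 alone 4 called lower. The median over all assays moved with the scaling too, between -2.47 and 1.05 for L-1210 against CT-BM, between -1.03 and 1.56 for M1 against CT-BM and between -0.84 and 1.84 for PYS against CT-BM. Taken relative to that median, and leaving quantile scaling aside, miR-30e was at -0.83 and never above -0.66 in L-1210 against CT-BM over 7 scalings, and between -1.99 and -1.44 in PYS against CT-BM. Over the 7 scalings in M1 against CT-BM, miR-30e lay between -0.45 and 0.15 relative to the median, and miR-30a to miR-30d between 0.23 and 1.01. In L-1210 against M1 the 5 members lay between -1.43 and -0.65 relative to the median, and in PYS against M1 between -2.02 and -0.75. No test was made of these relative values. Each of the 7 scalings shifts all assays of a card alike, so these values could move only through differences between the cards. Their steadiness was thus largely fixed in advance. With quantiles, miR-30e was at -0.82 beside a median of 0.41 in L-1210 against CT-BM. It was at -0.08 beside 0.46 in M1 and at -1.72 beside 0.45 in PYS.

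**Figure D2:**
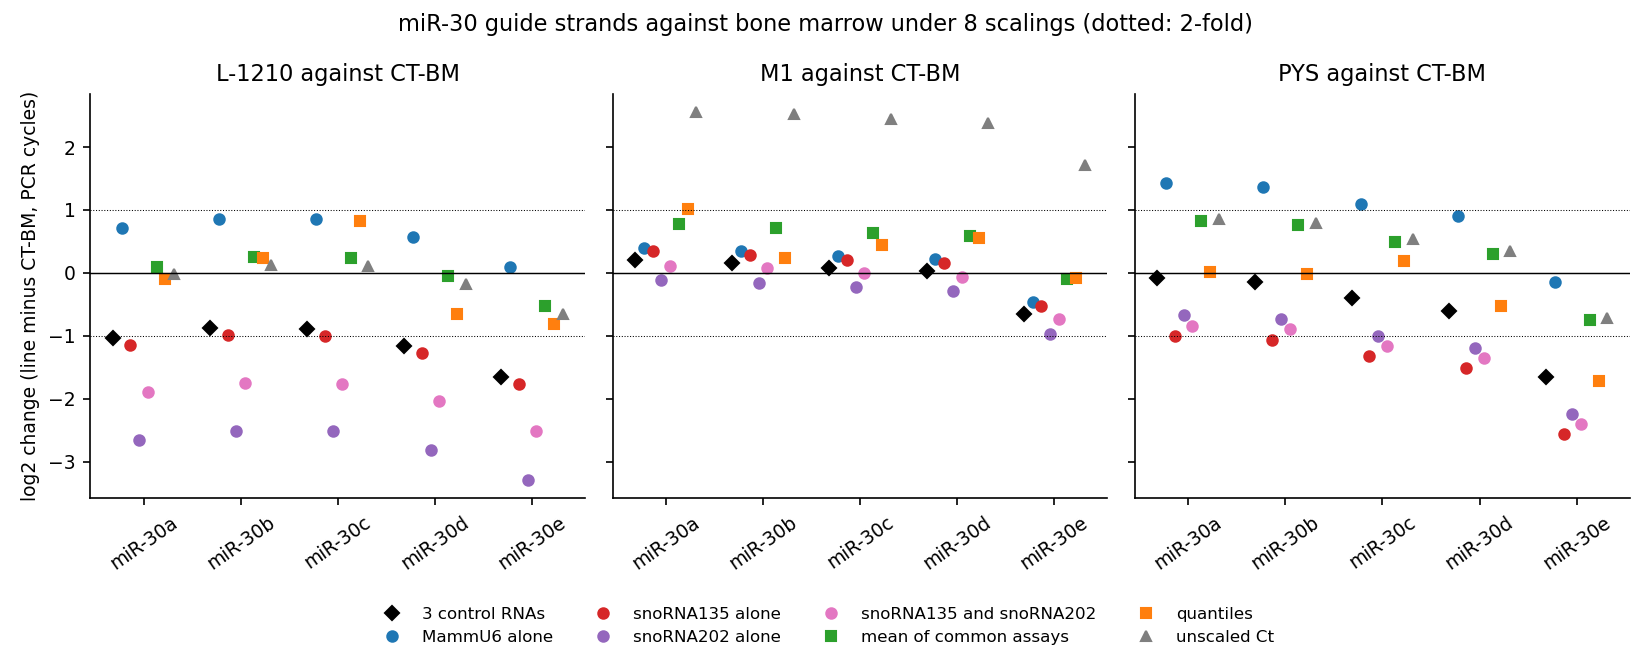
Log2 change (PCR cycles, line minus CT-BM) of the 5 members in L-1210, M1 and PYS under 8 scalings of the Ct; dotted lines mark 2-fold. Except with quantiles, a scaling shifts all 5 members by the same amount, so the order of members cannot differ among those 7 scalings. With quantiles members shift by unequal amounts. miR-30e is the lowest member in every panel, both in that fixed order and with quantiles. It reaches -3.29 in L-1210 with snoRNA202 alone and 1.71 in M1 with unscaled Ct.

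The split of calls over all assays shifted likewise. Of the assays called in L-1210 against CT-BM, 33% were higher with the 3 controls, between 14.9% and 63.9% over 8 scalings. In M1 against CT-BM the share was 36.3% (24.5% to 65.6%) and in PYS against CT-BM 50.7% (37.8% to 66.3%). It was 45% in L-1210 against M1 (25.3% to 78.1%), 62.4% in PYS against L-1210 (47.2% to 74.9%) and 62.8% in PYS against M1 (45.6% to 76.3%).

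Differences among members on one card do not depend on the control RNAs. Each member was therefore set against the mean of the 5 members on the card of the same replicate, and all assays of card A were refitted on that scale. This takes the members' shared change out of the members but not out of the other assays. The shares of all assays called on this scale are therefore no like background for the members. miR-30e stood at -1.53, -1.51 and -1.28 relative to the family in PYS, between -1.22 and -0.45 in the 3 L-1210 replicates (mean -0.89 ± 0.39 SD), at -1.26, -0.71 and -0.97 in M1, and at -0.40, -0.47 and -0.23 in CT-BM. The PYS replicates were the lowest and CT-BM the highest, with L-1210 replicate 1 alone reaching into the CT-BM range. In PYS against CT-BM, miR-30e fell by 1.08 relative to the family (SE 0.23, 2.11-fold, limma adjusted p = 0.000685), the only member called of 5, where 38.4% of 242 assays tested on that scale were lower. It was also lower at -0.53 in L-1210 (limma adjusted p = 0.0476) and -0.61 in M1 (limma adjusted p = 0.0256), both under 2-fold. In L-1210 that p was above 0.05 in 7 of 12 alternatives. It was 0.112 with no detection filter, 0.0749 with the replicate block, and above 0.05 in 5 of 6 fits that left out a replicate (up to 0.173, without L-1210 replicate 2). In M1 it was above 0.05 in 4 of 6 fits that left out a replicate. At the 2-fold minimum 0 of 5 members were called in L-1210 or M1 against CT-BM, where 73.2% of 224 and 67.3% of 217 assays tested were called in either direction. Because miR-30e is part of that mean, it was also set against the mean of miR-30a to miR-30d, a choice made after seeing the data, and was then lower than in CT-BM by -1.35 in PYS (limma adjusted p = 0.000434), by -0.66 in L-1210 (limma adjusted p = 0.0369) and by -0.77 in M1 (limma adjusted p = 0.0204).

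Differences among the other members were smaller. Between the lines 0 of 5 members were called relative to the family mean, where 67.2% of 201 assays were called in L-1210 against M1, 69.8% of 232 in PYS against L-1210 and 78.2% of 225 in PYS against M1. Because the scale removes the members' shared change, a low count beside these shares was partly fixed in advance. In L-1210 against M1 the member farthest from 0 was miR-30a at -0.14 (95% interval -0.48 to 0.19). In PYS against L-1210, miR-30a at 0.40 (limma adjusted p = 0.0374) and miR-30e at -0.55 (limma adjusted p = 0.0406) passed the p threshold below 2-fold. Of 12 alternatives, 8 for miR-30a and 6 for miR-30e did not pass it. miR-30a and miR-30b were higher relative to the family in PYS than in CT-BM, by 0.49 (limma adjusted p = 0.0124) and 0.43 (limma adjusted p = 0.0172), and with miR-30e left out of the mean these were 0.23 (limma adjusted p = 0.205) and 0.16 (limma adjusted p = 0.362). Across the 4 groups the F test on this scale gave an adjusted p of 0.00514 for miR-30e, and 0.0576 for miR-30a, 0.0999 for miR-30b, 0.52 for miR-30c and 0.95 for miR-30d. Of the 251 assays tested on this scale, 243 passed this F test, so passing it does not set miR-30e apart from other assays. The scale removes the members' shared change, so that share is no like background for the members that did not pass.

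**Figure D3:**
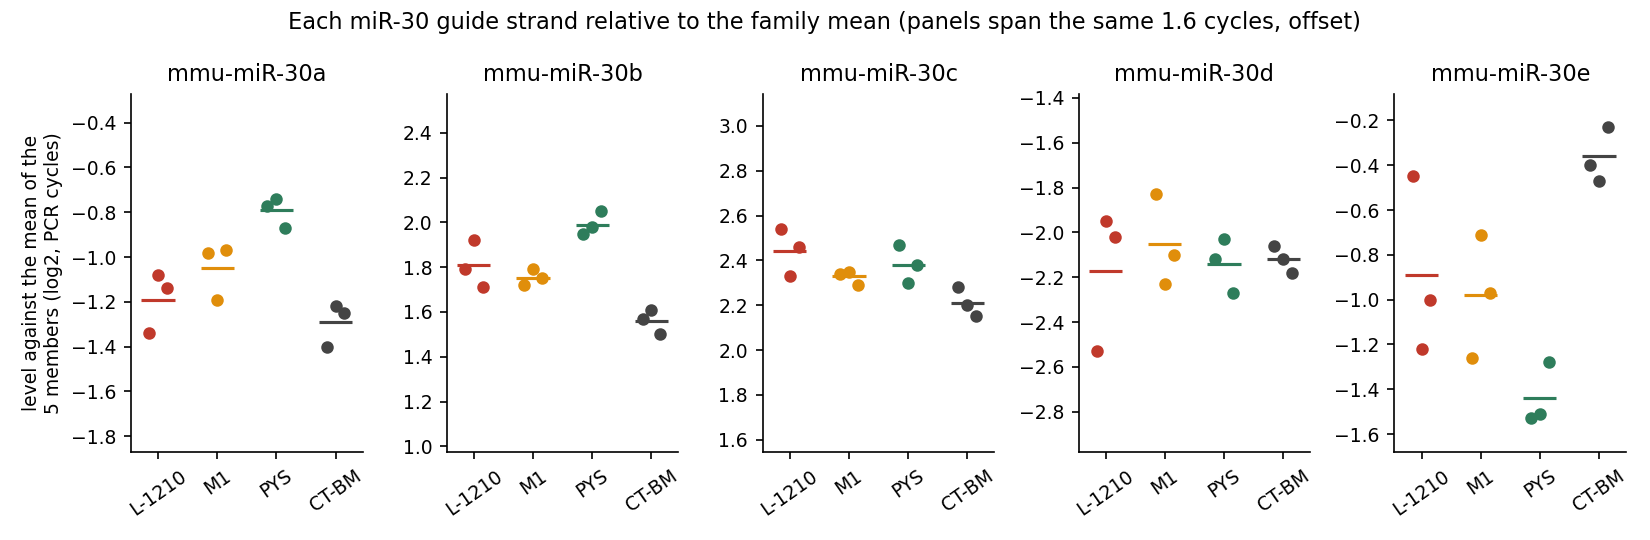
Level of each member relative to the mean of the 5 members in the same replicate (log2, PCR cycles) in L-1210, M1, PYS and CT-BM; points are replicates, bars the mean of 3, and every panel spans the same range with its own offset. miR-30e averages -1.44 in PYS and -0.36 in CT-BM, while miR-30d averages between -2.17 and -2.05 in all groups.

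Over the 12 replicates the levels of miR-30a to miR-30d correlated with each other at Pearson's r of 0.93 to 0.98, and those of miR-30e with theirs at 0.53 to 0.76. These values share the cards and the control RNAs, and the 12 replicates fall into 4 groups, so they describe these cards only. For the genomic pairs r was 0.93 for miR-30b and miR-30d, 0.93 for miR-30a and miR-30c, and 0.76 for miR-30e and miR-30c. Among 171 other mouse assays detected throughout, miR-15b was the most like miR-30a (r of 0.94), miR-30b (0.92) and miR-30d (0.89), and second for miR-30c (0.89) after miR-15b* (0.90). miR-93 followed for miR-30a and miR-30b (0.90 each), with miR-195 (0.86) next for miR-30a and miR-15a (0.85) next for miR-30b. miR-196b (0.87) was next for miR-30c, and miR-425 (0.85) and miR-449c (0.81) were next for miR-30d. The assays most like miR-30e were others, miR-150 (0.96), miR-449a (0.95) and miR-223 (0.94). miR-150 and miR-223 are in the lymphoid and blood marker lists, whose summed levels were highest in CT-BM, as given above for blood. Summed levels of the 2 lymphoid assays were 0.00591 to 0.0161 in L-1210, 0.015 to 0.0316 in M1, 0.000356 to 0.000487 in PYS and 0.316 to 0.37 in CT-BM, and their part in the miR-30e result was not tested.

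The passenger strands detected throughout differed more between groups than their guides. With the 3 controls, the range over group means was 8.66 for miR-30a*, 3.27 for miR-30e* and 2.54 for rno-miR-30d* (log2), against 1.23, 1.65 and 1.20 for the guides of the same names. Over the 187 assays detected throughout the median range was 2.53. Of these assays 64.2% had a smaller range than miR-30e* and 50.8% a smaller range than rno-miR-30d*, so among these passengers only miR-30a* was far above the median. Card B held 6 passenger assays, mmu-miR-30a*, 30b*, 30c-1*, 30c-2* and 30e*, and the rat-named rno-miR-30d*, counted here by its name. Of these, 30c-1* and 30c-2* did not amplify in any replicate, although miR-30c gave the earliest Ct of the guides, and they were not tested. Of the 4 tested, 1 was higher and 2 lower in L-1210 than in CT-BM, 2 higher and 2 lower in M1, and 4 higher and 0 lower in PYS. In L-1210 against M1 it was 0 higher and 3 lower, in PYS against L-1210 2 higher and 0 lower, and in PYS against M1 2 higher and 1 lower. These counts stand beside the percentages of all assays given with each comparison.

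Among the passengers detected throughout, miR-30a* had the widest range over group means. Its negative delta Ct was -12.47, -12.84 and -13.10 in L-1210, -11.12, -11.28 and -11.04 in M1, -4.17, -3.95 and -4.32 in PYS, and -5.31, -5.56 and -5.21 in CT-BM. The leukaemia lines were far below the other groups, at Ct of 25.3 to 25.7 in L-1210 and 23.0 to 23.8 in M1, where PYS ran from 16.7 to 17.5 and CT-BM from 19.1 to 19.9. miR-30a* was lower than in CT-BM by -7.44 in L-1210 (174-fold, limma adjusted p = 4.02e-12) and by -5.79 in M1 (55.1-fold, limma adjusted p = 4.35e-11), and higher by 1.22 in PYS (2.32-fold, limma adjusted p = 0.000177). It was higher in PYS than in L-1210 by 8.66 (403-fold, limma adjusted p = 3.11e-13). Each of the 8 scalings kept the call in both leukaemia lines, with changes from -9.09 to -5.42 in L-1210 and from -6.55 to -3.96 in M1. In PYS against CT-BM the change ran from 0.04 to 3.24 and was called under 5 of 8. The range over group means placed miR-30a* above 90.9% of the assays detected throughout, and its guide above 12.8%.

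miR-30e* had -9.42, -9.01 and -9.61 in L-1210, -8.31, -8.98 and -8.70 in M1, -6.12, -5.98 and -6.11 in PYS, and -7.30, -7.24 and -7.20 in CT-BM, with no overlap between any of the 4 groups. L-1210 and M1 were the closest, at -9.01 and -8.98 for their nearest replicates. miR-30e* was lower than in CT-BM in L-1210 (-2.10, limma adjusted p = 2.17e-06) and M1 (-1.42, limma adjusted p = 8.48e-05), and higher in PYS (1.17, limma adjusted p = 0.000328). Under 8 scalings these changes ran from -3.75 to -0.07 in L-1210, from -2.18 to 0.40 in M1, where the direction flips, and from -0.00 to 3.20 in PYS. In PYS the guide was lower than in CT-BM, and the passenger higher except with snoRNA135 alone, where the passenger's change was -0.00 and the guide's -2.57. miR-30b* was not detected in 3 of 3 CT-BM replicates and had Ct of 26.0 and 26.2 in 2 L-1210 replicates, 23.8 to 25.3 in M1 and 25.5 to 26.5 in PYS. Against the Ct limit in CT-BM it was at least 150-fold higher in L-1210, at least 399-fold in M1 and at least 223-fold in PYS with the 3 controls. L-1210 replicate 1 of this assay was not analysed here. These bounds depend on the scaling: on the log2 scale they were 7.23 in L-1210 (5.57 to 9.33 over 8 scalings), 8.64 in M1 (7.87 to 10.46) and 7.80 in PYS (6.62 to 9.83). rno-miR-30d* had -11.93, -11.31 and -11.74 in L-1210, -9.59, -9.62 and -9.47 in M1, -11.06, -11.13 and -10.86 in PYS, and -11.97, -12.01 and -12.31 in CT-BM. M1 was the highest, and the other groups lay close together with CT-BM the lowest. It was higher than in CT-BM in M1 (2.54, limma adjusted p = 1.69e-07) and PYS (1.08, limma adjusted p = 0.000379), with 0.44 in L-1210 (limma adjusted p = 0.0743). Over the scalings its change stayed above 0 in M1 (1.77 to 4.36) and flipped in PYS (-0.10 to 3.10) and L-1210 (-1.21 to 2.46).

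**Figure D4:**
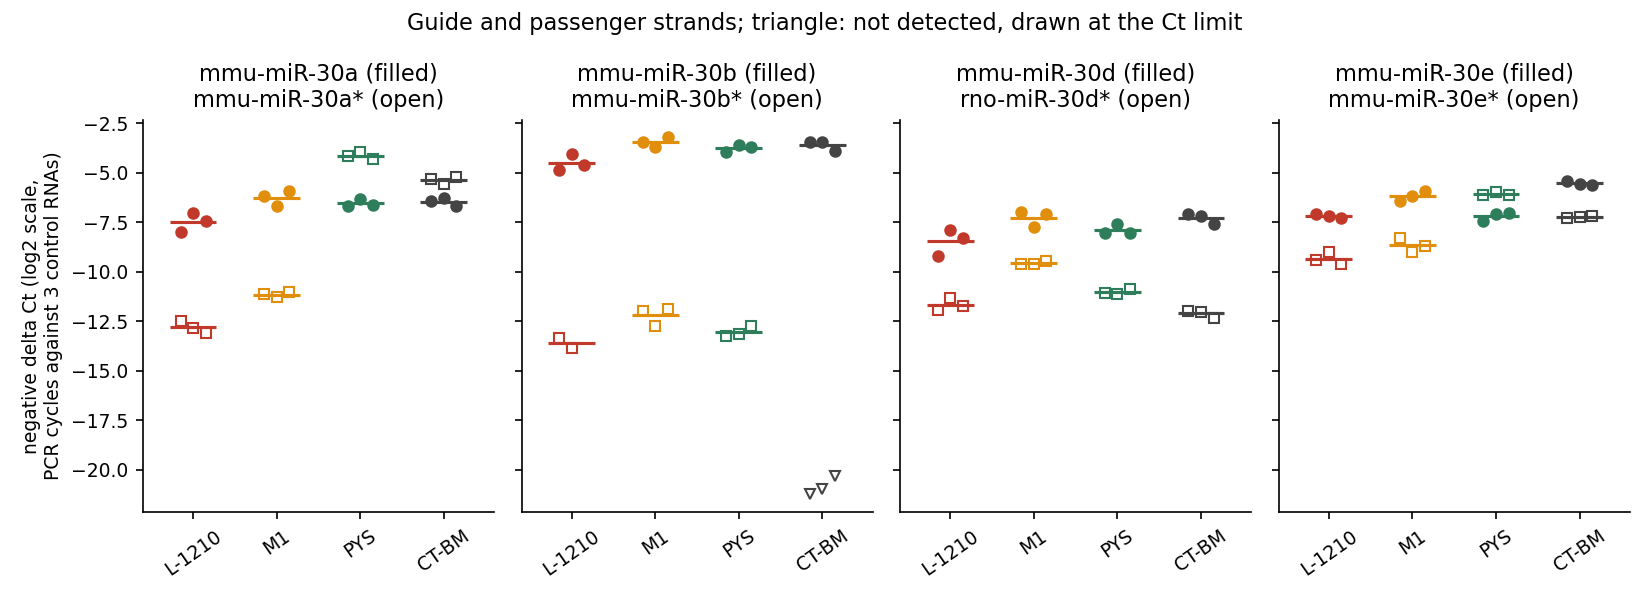
Negative delta Ct (log2 scale, PCR cycles against 3 control RNAs) of guides (filled circles) and passenger strands (open squares) in L-1210, M1, PYS and CT-BM; bars are means of the replicates and triangles mark replicates below detection, drawn at the Ct limit. The guide of miR-30a varies by 1.23 between group means and its passenger by 8.66.

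The gap between guide and passenger in one replicate puts the 2 strands of a hairpin side by side. The assays lie on different cards and differ in efficiency, so the sign of a gap does not say which strand was more abundant, and only its difference between groups is read. The gap of miR-30a minus miR-30a* was 4.47, 5.79 and 5.66 in L-1210, 4.96, 4.60 and 5.10 in M1, -2.53, -2.36 and -2.31 in PYS, and -1.13, -0.74 and -1.45 in CT-BM. All 6 replicates of the leukaemia lines lay above those of PYS and CT-BM, and PYS lay below CT-BM without overlap. Under 8 scalings the gap was larger than in CT-BM by 5.89 to 6.77 in L-1210 and by 5.14 to 6.53 in M1. For miR-30e minus miR-30e* the gap was 2.32, 1.82 and 2.31 in L-1210, 1.87, 2.79 and 2.76 in M1, -1.34, -1.11 and -0.92 in PYS, and 1.86, 1.69 and 1.56 in CT-BM. PYS was the lowest, below every replicate of the other groups, with a gap that differed from that in CT-BM by -2.83, between -3.34 and -1.87 under the scalings. With the 3 controls M1 also lay above CT-BM without overlap, its lowest replicate at 1.87 against 1.86 for the highest of CT-BM. That difference of 0.77 ran from -0.08 to 1.30 over 8 scalings, so its direction did not hold under all of them. The rat-named assay is set beside miR-30d by its name, and whether it reads the mouse passenger strand exactly was not tested. For miR-30d minus rno-miR-30d* the gap averaged 3.19 ± 0.39 in L-1210, 2.29 ± 0.35 in M1, 3.12 ± 0.36 in PYS and 4.80 ± 0.08 in CT-BM (SD, n = 3 each). Exact permutation tests over the 12 replicates, one for each of 3 gaps and unadjusted, gave p = 0.00026 for miR-30a, p = 0.00162 for miR-30e and p = 0.00123 for miR-30d, one-sided on the F statistic across the 4 groups, where the smallest p possible is 6.49e-05. With unscaled Ct the same permutation tests gave p = 6.49e-05 for miR-30a, p = 0.000974 for miR-30e and a larger p = 0.0158 for miR-30d. These tests ask whether the 4 groups differ at all, not which ones.

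miR-384-5p, the assay with the miR-30 seed outside the family, was close to the detection limit. Its Ct was 32.8, 30.7 and 31.0 in PYS, and in CT-BM it was 33.4 and 33.0 in 2 replicates with the third not detected. It was not detected in any replicate present of L-1210 (2) or M1 (2). PYS against CT-BM differed by 1.31 with overlapping groups and did not pass (limma adjusted p = 0.0511, with the undetected CT-BM replicate set to the limit). Against the limit it was at least 9.71-fold higher in PYS than in L-1210 and at least 27.4-fold higher than in M1.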

How the data were processed

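Per the labels, total RNA was extracted with a mirVana kit, reverse transcribed, preamplified and amplified over 40 cycles (Applied Biosystems 7900HT), with each replicate spread over TaqMan cards A and B. The deposited table gives the Ct of 8969 wells (PCR cycles, not normalized), of which 4334 were undetermined, and a Ct Avg, which, to within 0.001 cycles, was the average over repeat wells for 7000 of 7000 values when undetermined wells stood at 40. Card software was not given in the sources used here, and 0 columns of sample values were left unused. Each replicate title stands on 2 of 24 samples, one per card; a CT-BM run with no card in its name was placed on card A, where all 367 of its assays lie. Repeat wells were averaged, and a well that was undetermined or later than Ct 35 was taken as not detected, with 35 as its value. Precision is limited by the 3 replicates; read depth does not apply.

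Delta Ct used the card's own mean of the 3 control RNAs that the design text names. limma 3.58.1 in R 4.3.3 (lmFit, eBayes) was fitted to the negative delta Ct of all microRNA assays with 4 group means. An assay was tested if both groups had at least 2 replicates with a well and every such replicate of at least 1 of them was detected. Folds against an undetected group are lower bounds at the Ct limit. The 95% intervals used the moderated t of the fit. Sequences and positions came from RefSeq tables of GRCm38.p6. Exact permutation tests used SciPy 1.17.1, and figures matplotlib 3.10.9, in Python 3.11.15 with pandas 2.3.3 and numpy 2.4.6. The members, lists, markers and tests were chosen with earlier results of these data known. The rule named all 5 members, miR-30 passenger assays, miR-384-5p, rat miR-30 assays, and the 3 assays most like each member, all of which are given. Alternatives were 7 other scalings, Ct limits of 32 and 40, a detection filter in none or all of the 12 replicates, a fit restricted to the groups compared, eBayes with robust and trended settings, calls with no fold minimum, replicate number as a block and leaving out each replicate. Simulated data with 333 assays for L-1210 against CT-BM recovered 93.3% of 30 assays changed by 2 on the log2 scale and 100% of 30 changed by 3, with 0% of 273 unchanged assays called. The largest member change in that comparison was 1.65, and no shift of the control RNAs was simulated. These rates therefore do not say how reliable calls of members near 2-fold are.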

Additional observations from a re-analysis of the deposited data

Results flagged for a closer look

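Several miR-30 strands differed between lines, by the limma test of one line against another. Not every strand listed was called against CT-BM, and miR-30b was called in neither L-1210 nor M1. In L-1210 against M1 the difference was -1.234 for miR-30a, -1.039 for miR-30b, -1.203 for miR-30d, -1.004 for miR-30e, -1.655 for miR-30a*, -1.407 for miR-30b* and -2.100 for rno-miR-30d* (log2, to 3 decimals because some lie at the 2-fold limit). In PYS against L-1210 it was 8.656 for miR-30a* and 3.274 for miR-30e*. In PYS against M1 it was -1.005 for miR-30e, 7.001 for miR-30a*, 2.593 for miR-30e* and -1.457 for rno-miR-30d*. With MammU6 alone all 4 guide differences between L-1210 and M1 given here changed sign.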

How the results depend on the processing

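Counts of called members changed mainly with the scaling. In L-1210 against CT-BM, 3 were lower with the 3 controls, 0 with quantiles, unscaled Ct, MammU6 alone or the mean of assays common to all replicates, and 5 with snoRNA202 alone, with both snoRNAs or with no fold minimum. In M1 against CT-BM, 0 were higher, but 1 with quantiles and 5 unscaled, and 1 was lower with no fold minimum. In PYS against CT-BM, 1 was lower, but 0 with MammU6, common assays or unscaled Ct, 4 with snoRNA135, 2 with snoRNA202 and 3 with both snoRNAs, and 3 were higher with MammU6. In L-1210 against M1, 4 were lower, but 0 with MammU6 or common assays and 2 with quantiles. In PYS against L-1210, 0 were higher, but 5 with snoRNA202, 1 with both snoRNAs and 2 with no fold minimum. In PYS against M1, 1 was lower, but 0 with MammU6 or common assays, 5 with snoRNA135 or unscaled Ct, 3 with both snoRNAs and 2 with quantiles. Leaving out 1 replicate gave 1 to 5 lower in L-1210 against CT-BM, 1 to 5 in L-1210 against M1, 0 to 1 higher in PYS against L-1210 and 0 to 1 lower in PYS against M1. Ct limits, detection filters, the fit of only the groups compared and robust eBayes moved no count of members. With every member detected in every replicate, these settings left the log2 values as they were and could act only through the p-value. The replicate number as a block changed no call either (miR-30e in PYS against CT-BM was -1.65 with it), though relative to the family mean the adjusted p of miR-30e was 0.0749 in L-1210 against CT-BM and 0.0654 in PYS against L-1210, and that of miR-30a 0.0647 in PYS against L-1210. With no detection filter these were 0.112, 0.0943 and 0.139. Numbers did not pair the samples, since the correlation of deviations ran from -0.453 to 0.334 over 18 pairs, of which 3 were over 0.1.

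Of 990 single values under alternatives, 830 kept direction and side of the threshold, 29 lost a call, 50 gained one and 81 changed sign. Ct limits, detection filters, the fit of only the groups compared, robust eBayes, the fold minimum and the block could not change a member's log2 value. The count of 830 is therefore no measure of how far the values depend on processing. With MammU6 alone, L-1210 against CT-BM gave 0.72, 0.86, 0.85, 0.57 and 0.09 for miR-30a to miR-30e, L-1210 against M1 0.32, 0.52, 0.58, 0.35 and 0.55, PYS against M1 1.03, 1.02, 0.83, 0.69 and 0.32, and PYS against CT-BM 1.43, 1.37, 1.10 and 0.91 for miR-30a to miR-30d. With common assays, L-1210 against CT-BM gave 0.10, 0.25 and 0.24 for miR-30a to miR-30c, PYS against CT-BM 0.82, 0.76, 0.49 and 0.30 for miR-30a to miR-30d, and PYS against M1 0.05 and 0.04 for miR-30a and miR-30b. With quantiles, miR-30b and miR-30c gave 0.24 and 0.82 in L-1210 against CT-BM, 0.02 and 0.37 in L-1210 against M1, and -0.27 and -0.63 in PYS against L-1210, and miR-30a and miR-30c 0.02 and 0.19 in PYS against CT-BM. Unscaled, miR-30b and miR-30c gave 0.12 and 0.11 in L-1210 against CT-BM, miR-30e 1.71 in M1 against CT-BM, and miR-30a to miR-30d 0.86, 0.80, 0.54 and 0.34 in PYS against CT-BM. With snoRNA202 alone, M1 against CT-BM gave -0.11, -0.16, -0.23 and -0.29 for miR-30a to miR-30d, and PYS against L-1210 1.04 for miR-30e. With both snoRNAs these were -0.01 and -0.06 for miR-30c and miR-30d, and 0.12 for miR-30e. With snoRNA135, PYS against L-1210 gave -0.07, -0.32 and -0.24 for miR-30b to miR-30d. The cause was not tested.

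With miR-30e left out of the family mean, chosen after seeing the data, signs changed for miR-30a in L-1210 against CT-BM (-0.03), miR-30c and miR-30d in M1 against CT-BM (-0.04 and -0.09), miR-30c in PYS against CT-BM (-0.10) and against M1 (-0.06), and miR-30d in PYS against L-1210 (-0.11). Leaving out 1 replicate gave changes on both sides of 0 for miR-30c (-0.06 to 0.21) and miR-30d (-0.12 to 0.26) in M1 against CT-BM, miR-30a in PYS against CT-BM (-0.20 to 0.00) and miR-30e in PYS against L-1210 (-0.08 to 0.13). Relative to the family mean this held for miR-30d in L-1210 against CT-BM (-0.16 to 0.14), M1 against CT-BM (-0.05 to 0.15), PYS against CT-BM (-0.08 to 0.04), L-1210 against M1 (-0.22 to 0.07), PYS against L-1210 (-0.16 to 0.13) and PYS against M1 (-0.18 to 0.03), and for miR-30b (-0.01 to 0.10) and miR-30e (-0.13 to 0.25) in L-1210 against M1.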
